A study of Mus musculus with 2 samples.

Results

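Heat-shock-high macrophages were the 264 of 2639 gated wild-type cells in which the transcripts of Hspa1a and Hspa1b, the stress-inducible HSP70 chaperone genes, took the highest share of all transcripts. The cells came from the small intestine of mice and were sequenced as single cells in droplets by the 10x Genomics 3′ v2 method, which counts transcript ends by unique molecular identifiers (UMIs). Gated cells had at least 200 detected genes, at most 10% mitochondrial UMIs and at least 0.5% of their UMIs from C1qa, C1qb and C1qc, the complement genes of tissue macrophages. The gate held 2639 of the 3054 deposited wild-type cells, and the series held 5828 cells in all. Members were chosen by their summed share of Hspa1a and Hspa1b UMIs: the highest 10% of gated cells are called heat-shock-high here, and the 1320 cells in the lowest 50% heat-shock-low.

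Wild-type cells were taken from male C57BL/6J mice bought from Janvier. The library used for comparison came from Ccr2-/- animals (JAX strain 004999, bred in-house), which lack the chemokine receptor by which monocytes reach tissue. Animal source and genotype were therefore the same split. The labels name no treatment and no age for either group, and 3 to 4 intestines were pooled per genotype. Each intestine was stripped of mucus and epithelium and digested with Liberase TL before sorting for live CD45+ CD11b+ MHCII+ CD64+ cells without CD3, TCRb, B220, SiglecF, Ly6C and Ly6G. The wild-type cells ran in 2 lanes that carry different barcode suffixes, with 1821 gated cells in lane 1 and 818 in lane 2. Per the labels the lanes split 1 sample, so they were not treated as replicate animals and no test across animals was possible. Values are given by lane for the main genes and lists, and otherwise over both lanes together.

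Cells answer protein damage and heat with the heat-shock response. Unfolded protein draws chaperones away from heat-shock factor 1 (HSF1), which then forms trimers, binds repeated GAA units in promoters and induces chaperones of the HSP70, HSP90, HSP40 and HSP110 families together with co-chaperones such as Bag3. Immediate-early genes such as Fos, Jun and Egr1 are a separate class. They are induced by kinase signalling within minutes, need no new protein, and are known to be induced during enzymatic dissociation of tissue, as heat-shock genes are. Macrophages also induce immediate-early genes on inflammatory stimulation.

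The sequences before the transcription start show how alike the genes used for ranking are, and set them beside Jun, an immediate-early gene that was higher in the same cells. Hspa1a (ENSMUSG00000091971) lies on the minus strand of chromosome 17 from 34969190 to 34972156, and Hspa1b (ENSMUSG00000090877) on the same strand from 34956436 to 34959238 (GRCm38, GENCODE M21), with 9951 bases between them. Jun (ENSMUSG00000052684) is on the minus strand of chromosome 4 from 95049034 to 95052222. Each is annotated as a protein-coding gene. The 150 bases upstream of the start are printed 5′ to 3′ on the gene's strand from RefSeq (GRCm38.p6). Capitals mark a pair of GAA units facing each other, the 8-letter form GAANNTTC.
Hspa1a, chr17:34972157-34972306: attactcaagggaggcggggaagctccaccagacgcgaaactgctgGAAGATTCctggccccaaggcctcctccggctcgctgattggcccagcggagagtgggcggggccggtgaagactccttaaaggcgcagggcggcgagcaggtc
Hspa1b, chr17:34959239-34959388: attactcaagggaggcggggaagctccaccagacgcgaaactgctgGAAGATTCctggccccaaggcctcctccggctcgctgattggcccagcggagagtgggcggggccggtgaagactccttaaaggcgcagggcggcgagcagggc
Jun, chr4:95052223-95052372: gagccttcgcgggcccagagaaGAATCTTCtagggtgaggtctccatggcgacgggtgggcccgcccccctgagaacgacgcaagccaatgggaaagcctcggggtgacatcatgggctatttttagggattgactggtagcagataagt

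The Hspa1a and Hspa1b windows differed at 1 of 150 bases (99.3% identical), and the capitalised match stood at -104 to -97 from the start in both. In Jun it stood at -128 to -121. GAANNTTC or its alternative phase TTCNNGAA, read on both strands, occurred in 12.8% of the 32851 RefSeq promoter windows. The windows run from 250 bases before to 50 after the start, and only the 250 bases before it were searched. Among the listed heat-shock factor targets with Hspa1a and Hspa1b, 11 of 25 genes with a window held it (44%). Among the immediate-early genes 3 of 26 did (11.5%), and among all genes with a window 14.5%. Jun is 1 of those 3, so the printed match does not stand for the immediate-early genes. A longer form, with a further facing unit at the same spacing to make 3 units, was found in 0.466% of windows. By gene it was found in 0.514% of all genes with a window and in 3 of the 25 heat-shock factor target genes (12%). Of 132 genes higher in heat-shock-high cells that had a window, 17 (12.9%) held the 2-unit form. TGACGTCA, the letters of the cyclic AMP response element, was found in 1.55% of windows. By gene it was found in 1.77% of all genes with a window, 3.16% of those above the expression minimum used below, and 4 of 26 immediate-early genes (15.4%). A match describes these letters in this window only.

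The ranking values were as follows, and are a description since they chose the cells. Hspa1a and Hspa1b together took from 0.232% to 2.07% of UMIs in heat-shock-high cells, with a median of 0.302%. That is 4 to 103 UMIs per cell, with a median of 16. The first cell outside also had 0.232%, the 10th inside 0.237% and the 10th outside 0.227%, and 115 cells lay within 10% of the limit. Being cut from a share per cell, the group is a range of that share and is not called a cell type. Heat-shock-low cells had a median of 1 UMI, and 464 of them (35.2%) had none.

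**Figure D1:**
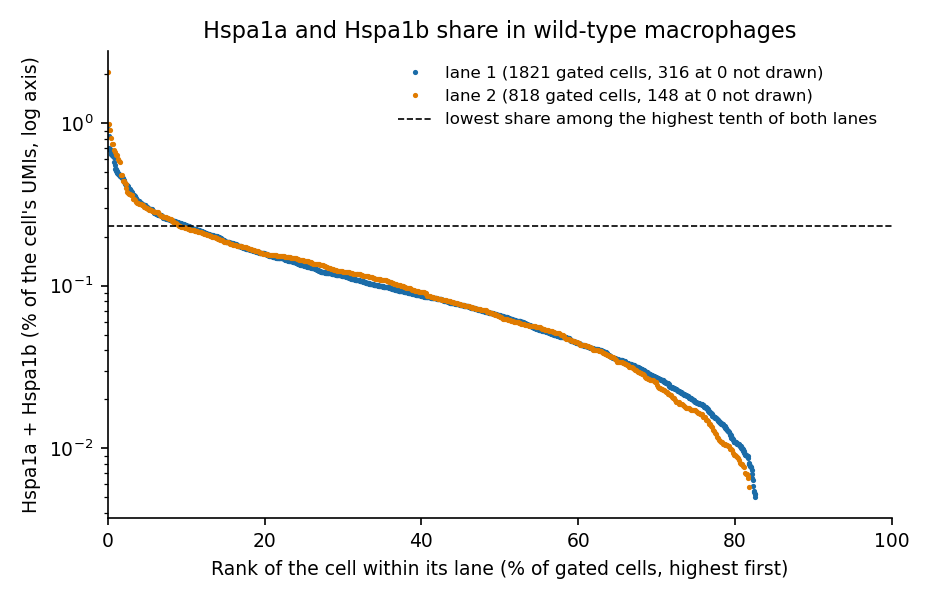
Share of UMIs from Hspa1a and Hspa1b (log axis, % of each cell's UMIs) against the rank of each gated wild-type cell within its lane (%), 1 point per cell. The curves of lane 1 and lane 2 overlie each other and cross the dashed limit (0.232%) near 10%, and 316 and 148 cells at 0 are not drawn.

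Both lanes contributed heat-shock-high cells. They were 188 of 1821 gated cells in lane 1 (10.3%, 95% Clopper-Pearson interval 8.96% to 11.8%) and 76 of 818 in lane 2 (9.29%, interval 7.39% to 11.5%). These intervals, like all others here, cover counting error only. Hspa1a stood at 2451 counts per 1000000 UMIs (CPM) in heat-shock-high cells of lane 1 and 2976 CPM in lane 2, against 173 and 184 CPM in heat-shock-low cells. Hspa1b stood at 917 and 683 CPM against 67.3 and 40.8 CPM. Lane 1 thus had less Hspa1a and more Hspa1b in both sets of cells, and the ratio of their UMIs over gated cells was 2.79 in lane 1, 3.84 in lane 2 and 1.32 in the knockout. The lanes shared 5 barcode sequences, with 2.67 expected by chance, and the libraries shared 6. None of the 5 was heat-shock-high in both lanes.

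Reads of Hspa1a and Hspa1b could be told apart where the 3′ method counts: no 50-base stretch of the last 400 bases of the Hspa1a transcript occurs in that of Hspa1b. Each gene was also higher in cells ranked by the other. Cells ranked by Hspa1a alone had 613 CPM of Hspa1b in the highest 10% and 109 CPM in the lowest 50%, a log2 ratio of 2.49 (95% Poisson interval 2.37 to 2.63). Ranked by Hspa1b alone they had 1490 and 403 CPM of Hspa1a, a log2 ratio of 1.88 (1.80 to 1.97). Among heat-shock-high cells 244 of 264 (92.4%) carried UMIs of both genes, a share that the ranking itself raises.

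Heat-shock-high cells were shallower than heat-shock-low cells and differed in RNA composition. The median was 4731.5 UMIs and 1698 genes against 6606.5 UMIs and 2054.5 genes. With every cell thinned to 1000 UMIs the medians were 568.5 and 553 genes. Mitochondrial UMIs had a median of 3.85% in lane 1 and 2.41% in lane 2 in heat-shock-high cells, against 2.97% and 2.74% in heat-shock-low cells, so the order of the groups turned between lanes. Cytosolic ribosomal protein genes took 16.3% of UMIs against 20.2%, lower in both lanes. The nuclear-retained transcripts, mostly Malat1, took 5.36% against 3.82%, higher in both lanes (5.49% against 4.26%, and 5.02% against 2.81%). C1q genes, on which the gate rests, had a median of 0.972% against 1.26%. The part of depth and RNA composition in the results below was not tested beyond the alternatives named there.

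The cells carried macrophage markers and few markers of other types. All 12 core macrophage genes, including Csf1r, Adgre1 and Fcgr1, were above the minimum of 25 CPM averaged over the groups compared. Summed, the list took 1.29% of UMIs in heat-shock-high and 1.55% in heat-shock-low cells. By the log2 ratio defined in the next paragraph, 8 of 12 genes were above 0, where 59.5% of all genes were. Of the 12, 1 was called higher (Mertk, 0.64) and 1 lower (Lyz2, -0.60), where 4.28% and 1.56% of all genes were. Csf1r, the receptor for the macrophage growth factor CSF1, had 1155 and 892 CPM, and the antigen presentation genes of MHC class II were nearly equal (median log2 ratio -0.01 over 7 genes). Of 8 listed T cell or innate lymphoid genes in the files, 6 were at 0 in heat-shock-high cells, Cd3e, Cd3d and Cd3g among them, and the list summed to 0.000225% of UMIs against 0.000794%. B or plasma cell genes summed to 0.0121% against 0.0188%, dendritic cell genes to 0.00758% against 0.00884%, enterocyte or Paneth cell genes to 0.0213% against 0.0240%, and erythrocyte genes to 0.0012% against 0.00126%. Granulocyte genes summed to 0.00465% against 0.00395%, with 6 of 9 at 0 in heat-shock-high cells. S100a8 and S100a9, which define neutrophils, had no UMI in either group, and Siglecf, a gene of eosinophils, had 10 UMIs (7.5 CPM) against 23 (2.4 CPM). The fibroblast or endothelial list was higher, at 0.00983% against 0.00567%, through Pecam1 (84.8 against 42.2 CPM), an adhesion gene that leukocytes also express. Cdh5 and Plvap, which define endothelium, were at 0 in heat-shock-high cells. Scrublet, a doublet caller, placed 0 of 264 heat-shock-high cells and 20 of 1320 heat-shock-low cells among its highest scores.

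Over all genes, the highest ratios included Dnajb1, Bag3, Hsp90aa1, Hsph1 and Dnaja1, which are chaperones or co-chaperones, beside genes of other kinds. UMIs were summed over the cells of each group, scaled to CPM without Hspa1a and Hspa1b, and compared as a log2 ratio with 1 CPM added. A gene is called higher or lower where it differed at least 1.5-fold over both lanes together and lay on the same side in each lane. Of 4348 genes above the minimum 186 were called higher (4.28%) and 68 lower (1.56%). Scaling by the median of gene ratios in place of total UMIs, which moves the median of all genes from 0.07 to 0, gave 115 higher and 120 lower, so the split moved from 73.2% to 48.9% higher. The median of 0.07 is the level against which the ratios below are read.

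Heat-shock factor targets other than Hspa1a and Hspa1b were higher in the same cells. Of the 28 listed genes 19 were above the minimum, 17 of these had a ratio above 0 (59.5% of all genes did), 13 did so in both lanes (39.4% of all genes), 7 were called higher and 0 lower. Their median log2 ratio was 0.47, with 0.40 in lane 1, 0.52 in lane 2 and 0.48 in the knockout. Over all 28 with no minimum, 22 were above 0 and the median was 0.41. The sum of the list was 1.01% of UMIs in heat-shock-high cells and 0.686% in heat-shock-low cells.

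Dnajb1, an HSP40 co-chaperone that hands clients to HSP70, had the highest ratio of all 4348 genes. It had 145 CPM in heat-shock-high cells of lane 1 and 159 CPM in lane 2, against 25 and 37.3 CPM in heat-shock-low cells, a log2 ratio of 2.34 (2.11 to 2.65). In the knockout the same ranking gave 145 and 29.8 CPM, a log2 ratio of 2.24. The summed level was therefore higher in the ranked cells in both lanes and in the knockout. The lanes split 1 sample, and 39.4% of all genes had a ratio above 0 in both lanes. Even so, only 102 of 264 heat-shock-high cells (38.6%) carried a Dnajb1 UMI. At 1000 UMIs per cell the share was 10.6% (7.16% to 15%) against 3.11% (2.24% to 4.19%), and 0 of 47 reference cells below the C1q minimum with lymphoid transcripts had one (3 counts allow up to 6.38%, and the exact interval reaches 7.55%, within the interval of the heat-shock-high cells). Without thinning the shares were 38.6%, 16.6% and, at a median of 7559 UMIs, 23.4% in the reference cells.

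Hsp90aa1, the stress-inducible HSP90, had the most UMIs of the genes called higher in this list. Its levels were 1444 and 1163 CPM in the lanes against 453 and 373 CPM, a log2 ratio of 1.67 (1.59 to 1.75), and 590 against 221 CPM in the knockout. Hsp90ab1, the constitutive HSP90, was at 1870 and 1835 CPM against 1553 and 1276 CPM, a log2 ratio of 0.34. The inducible form thus differed more than the constitutive form in both lanes. Hspa8, the constitutive HSP70, resembled Hsp90ab1 in this respect, with a log2 ratio of 0.47 (0.41 to 0.53).

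Co-chaperones and nucleotide exchange factors were among the remaining genes called higher in this list. Bag3, which links HSP70 to autophagy, had 43.6 and 32.4 CPM in the lanes against 12.1 and 8.30 CPM (log2 ratio 1.79), and was above the minimum through the heat-shock-high group. Hsph1, the HSP110 exchange factor of HSP70, had 85.2 and 89.0 CPM against 31.0 and 20.4 CPM (1.60). Dnaja1, another HSP40, had 419 and 362 CPM against 170 and 137 CPM (1.33). These 3 genes had knockout ratios of 1.48 (0.53 to 2.62), 1.48 (0.75 to 2.30) and 1.43 (1.13 to 1.75). Bag3 was below the minimum in the knockout, with 23.6 against 7.79 CPM. Dnajb4, a further HSP40, was also called higher (log2 ratio 1.0), with a knockout ratio of 0.15. Like Bag3, it was above the minimum in wild type only through the heat-shock-high group (48.8 against 23.9 CPM).

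The mitochondrial chaperonin pair Hspd1 and Hspe1 lay at log2 ratios of 0.50 and 0.47, under the 1.5-fold limit. Ahsa1, Dnajb6, Chordc1, Hspa4 and Stip1, co-factors of HSP90 and HSP70, lay between 0.08 and 0.22 with intervals that included 0, and Ubb at 0.15 (0.08 to 0.21). Cacybp (-0.20) and Fkbp4 (-0.26) were the 2 targets below 0, both with intervals that included 0, whereas in the knockout they lay at 0.63 and 0.50. Below the minimum, Hspb1, a small heat-shock protein, had 10 UMIs in heat-shock-high cells (7.50 CPM) and 26 in heat-shock-low cells (2.72 CPM). Cryab had 3 and 51 UMIs, and Hspb8 0 and 2.

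Other parts of the protein quality control machinery were not called. The cytosolic chaperonin subunits, which fold actin and tubulin, had 0 of 7 genes above 0 (59.5% of all genes were; median log2 ratio -0.13), and the 31 proteasome subunits had 10 above 0 (median -0.07). Hsf1 itself was below the minimum with 15 against 10.2 CPM, and its listed partners had a median of -0.07. Among 17 genes of the endoplasmic reticulum stress list, 16 were above 0, against 59.5% of all genes, and 0 were called (median 0.29). Herpud1 led them at 0.49, followed by the HSP40 of that compartment, Dnajb9, at 0.47.

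**Figure D2:**
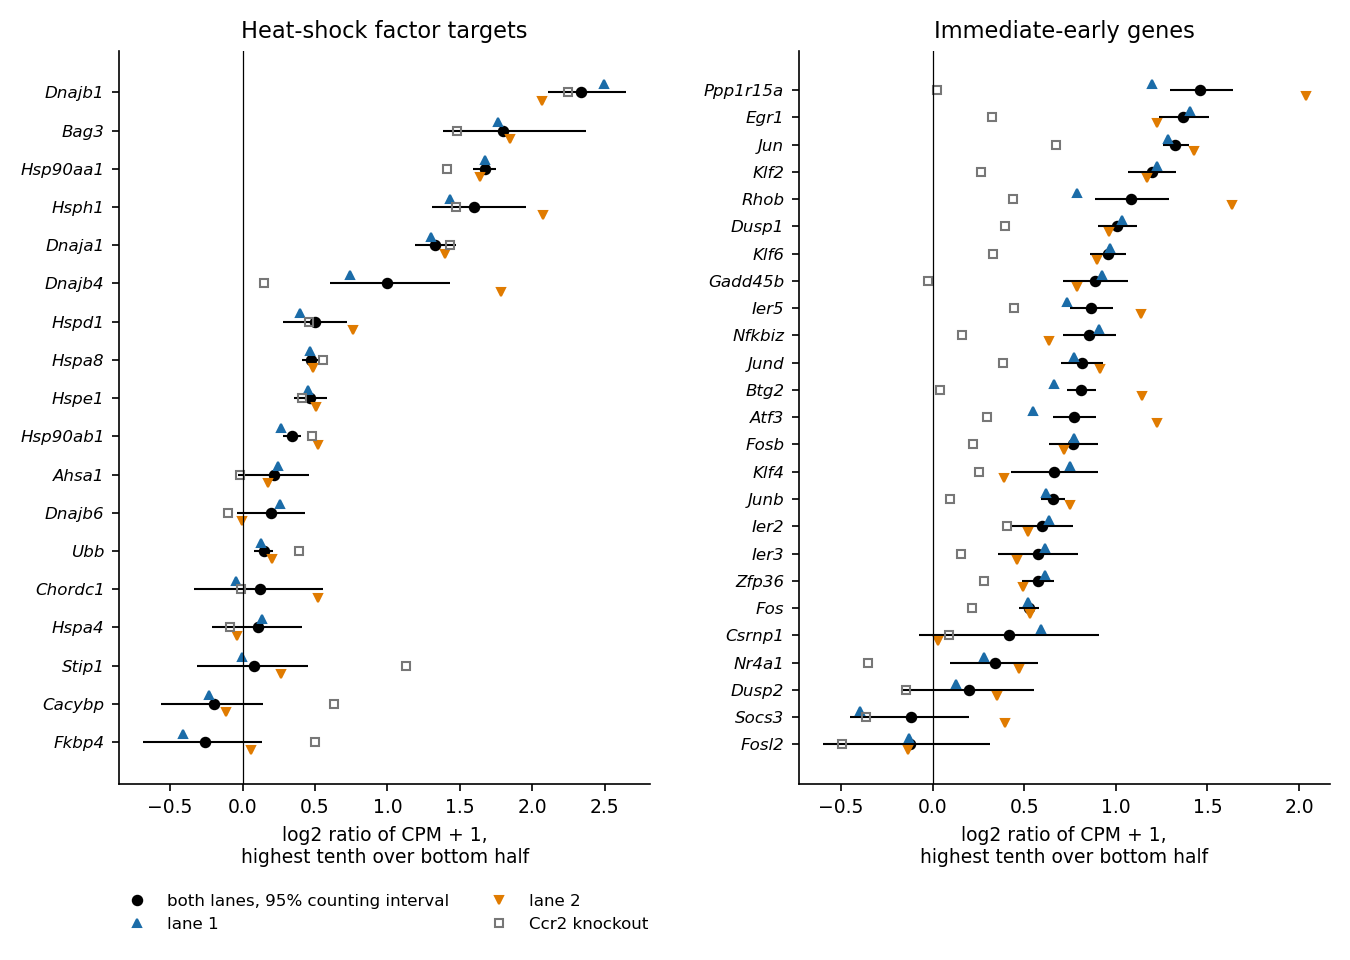
Log2 ratio of CPM + 1 (horizontal axis), highest 10% over lowest 50% of gated cells by Hspa1a and Hspa1b share, for heat-shock factor targets (left) and immediate-early genes (right) that were above the minimum and are reported here. Black points are wild type over both lanes with 95% counting intervals, triangles are the lanes and open squares the Ccr2 knockout. Dnajb1 lies at 2.34 in wild type and 2.24 in the knockout, whereas Egr1 lies at 1.37 and 0.33.

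Immediate-early genes were higher in the same wild-type cells. Of 31 listed genes 25 were above the minimum, and 23 of these had a ratio above 0 (59.5% of all genes). The ratio was above 0 in lane 1 and also in lane 2 for 23 genes (39.4% of all genes). Of the 25, 17 were called higher and 0 lower, where 4.28% of all genes were called higher. The median log2 ratio was 0.77, with 0.74 in lane 1 and 0.75 in lane 2, and with no minimum it was 0.73 with 27 of 30 genes above 0. Summed, the list took 1.47% of UMIs in heat-shock-high cells against 0.844%, in lane 1 1.43% against 0.837% and in lane 2 1.57% against 0.859%.

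Jun, a subunit of the AP-1 transcription factor, had 1705 CPM in heat-shock-high cells of lane 1 and 1535 CPM in lane 2, against 700 and 570 CPM in heat-shock-low cells. Its log2 ratio was 1.33 (1.26 to 1.40). The Jun ratio was above 0 in both lanes, as it was for 39.4% of all genes. Ranked by Hspa1b alone, the Jun ratio was 0.75. Egr1, a zinc-finger factor induced through serum response factor, had 475 and 359 CPM against 179 and 153 CPM (log2 ratio 1.37, 1.23 to 1.51). Ppp1r15a, which recruits a phosphatase that restores translation after stress, had the highest ratio of the list at 1.46, with 248 and 383 CPM against 108 and 92.6 CPM. Of these 3 genes Ppp1r15a differed most between lanes, with log2 ratios of 1.20 and 2.04.

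Fos, the partner of Jun in AP-1 and the most abundant gene of the list, differed less. It had 2517 and 2491 CPM against 1755 and 1721 CPM, a log2 ratio of 0.52 (0.47 to 0.58), which is under the 1.5-fold limit. Fosb was called higher at 0.77, Jund at 0.81 and Junb at 0.66. The Jun family members thus all exceeded Fos in ratio, while Fos had the highest level. Klf2, a factor that restrains macrophage activation, had 428 and 556 CPM against 182 and 247 CPM (log2 ratio 1.19), and its relatives Klf6 and Klf4 lay at 0.95 and 0.66.

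Feedback regulators were among the genes called higher. Dusp1, a phosphatase that switches off stress kinases, had 694 and 777 CPM against 338 and 398 CPM, a log2 ratio of 1.01 (0.91 to 1.11). Rhob, a small GTPase, lay at 1.08, the growth arrest genes Gadd45b and Btg2 at 0.88 and 0.81, Ier5, which is known to assist HSF1, at 0.87, the NF-kappaB regulator Nfkbiz at 0.85, Atf3 at 0.77 and Ier2 at 0.59. Ier3 and the mRNA decay factor Zfp36 lay at 0.57 each, Csrnp1 at 0.42, Nr4a1 at 0.34 and Dusp2 at 0.20, below the limit. Socs3 (-0.12) and Fosl2 (-0.13) were the 2 genes below 0, both with intervals that included 0. Of the genes below the minimum Egr3 had no UMI, Maff had 18.8 against 9.51 CPM, Myc 22.5 against 18.4 CPM, and Egr2 16.5 against 17.3 CPM.

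The share of cells with a UMI gave the same order of the groups at equal depth. After thinning to 1000 UMIs, Jun was found in 68.6% of heat-shock-high cells (62.6% to 74.1%) and 40.4% of heat-shock-low cells (37.7% to 43.1%), with 25.5% (13.9% to 40.3%) in the 47 reference cells. Without thinning the Jun shares were 93.6%, 84.4% and 83.0%. Egr1 was found in 33.3% (27.7% to 39.4%), 13.7% (11.9% to 15.7%) and 12.8% (4.83% to 25.7%) after thinning. The heat-shock-high shares lay above the intervals of the reference cells. The heat-shock-low share of Egr1 lay within that interval and is not read as above background, and that of Jun lay at its upper bound. The reference cells were chosen by at least 3 UMIs summed over the T cell or innate lymphoid and the B or plasma cell lists. Without thinning, 72.3% carried Jchain, a gene of the latter list, against 37.3% of heat-shock-low cells. For Ccr2 the shares were 40.4% and 44.0%. The type of the reference cells was not established. They can express Jun and Egr1 themselves, so their shares are not a pure background.

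Cell by cell, most heat-shock-high cells had an immediate-early share above the gated median, and some did not. The summed immediate-early share had a median of 1.20% in heat-shock-high cells (middle 50% of cells 0.815% to 2.07%) and 0.729% in heat-shock-low cells (0.442% to 1.10%). By lane the medians were 1.19% and 1.36% against 0.723% and 0.735%. Of the 264 heat-shock-high cells 209 (79.2%) were above the median of all gated cells, against 46.0% of heat-shock-low cells. For the heat-shock factor targets these shares were 76.9% and 39.4%. The distributions overlapped broadly in both lanes.

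**Figure D3:**
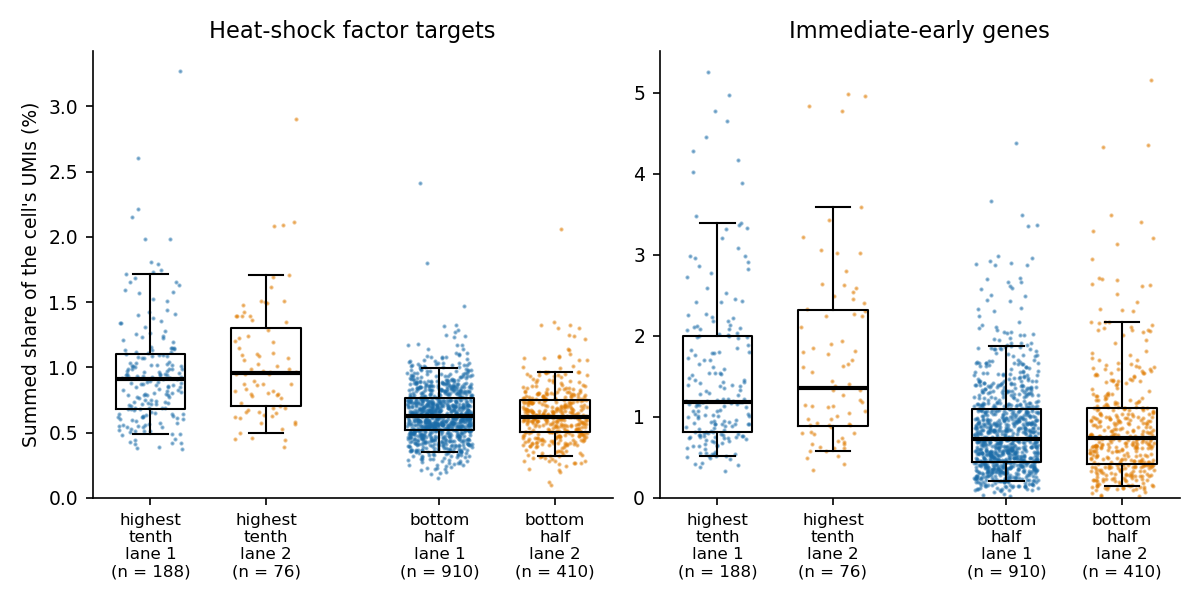
Summed share of each cell's UMIs (%, vertical axes) from heat-shock factor targets other than Hspa1a and Hspa1b (left) and from immediate-early genes (right), 1 point per cell, by group and lane. Boxes show the median and middle 50% of cells and whiskers the 5th to 95th percentile; immediate-early medians are 1.19% and 1.36% in heat-shock-high cells and 0.723% and 0.735% in heat-shock-low cells.

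The cells highest for both programmes overlapped in part. When gated cells were ranked by immediate-early share instead, 80 of the 264 heat-shock-high cells (30.3%, 24.8% to 36.2%) fell into the highest 10%, and the same 80 are 30.3% of that set. By lane these were 53 of 188 cells (28.2%) and 27 of 76 cells (35.5%). Of heat-shock-low cells 6.52% (5.24% to 7.98%) did so. The remaining 184 heat-shock-high cells had immediate-early shares outside the highest 10%.

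Heat-shock-high cells with low immediate-early transcripts still had more Dnajb1 and Hsp90aa1 than heat-shock-low cells. The 55 cells at or below the gated median of immediate-early share had 80.0 CPM of Dnajb1 (51.3 to 119) and 854 CPM of Hsp90aa1 (752 to 965). The 209 cells above it had 169 and 1514 CPM. Heat-shock-low cells had 25.4 CPM of Dnajb1 at or below that median and 32.4 CPM above it, and 438 and 418 CPM of Hsp90aa1. Dnajb1 and Hsp90aa1 were thus higher in heat-shock-high cells on either side of the immediate-early median, and higher still where immediate-early transcripts were also high. In the 55 cells Hsph1 had 36.7 CPM (18.3 to 65.6) and Bag3 16.7 CPM (5.41 to 38.9), intervals that include the 24.6 and 9.46 CPM of heat-shock-low cells at or below the median.

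Along the whole ranking the immediate-early share did not follow Hspa1a and Hspa1b evenly. Over 10 bins of gated cells from highest to lowest, the summed immediate-early share was 1.47%, 1.09%, 0.905%, 0.873%, 0.816%, 0.780%, 0.801%, 0.826%, 0.889% and 0.957%. It was lowest in the middle of the ranking. The last 2 bins hold mostly cells without an Hspa1a or Hspa1b UMI, ordered among themselves by file position. Those 464 cells had 0.946% at a median depth of 4766.5 UMIs. File position also sorts the lanes: lane 2 gave 9.09% of cells in the 9th bin and 56.3% in the last, against 31.0% of gated cells. The difference between the last 2 bins is therefore not read as following the ranking. Heat-shock factor targets had 1.01% in the first bin, 0.825% in the second and from 0.651% to 0.774% in the others. Dnajb1 went from 149 to 85.5, 67.6 and 33.5 CPM over the first 4 bins.

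Within the heat-shock-high cells both the Dnajb1 level and the immediate-early share stood out in the highest 88 cells. The 88 cells with the highest Hspa1a and Hspa1b share had 1.93% immediate-early UMIs and 243 CPM of Dnajb1 (196 to 298). The next 88 had 1.29% and 125 CPM (94.3 to 161), and the last 88 had 1.27% and 99.3 CPM (73.5 to 131). The Dnajb1 intervals of the next and the last 88 overlapped. Median depth ran the other way, at 3883.5, 4864 and 5454 UMIs. Spearman's rho of the 2 shares across cells was 0.18 over 2639 gated cells and 0.33 over the 264, and that of Hspa1a and Hspa1b with the heat-shock factor targets was 0.30 and 0.33. These are descriptions of cells of 1 library that share the total in their denominators.

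**Figure D4:**
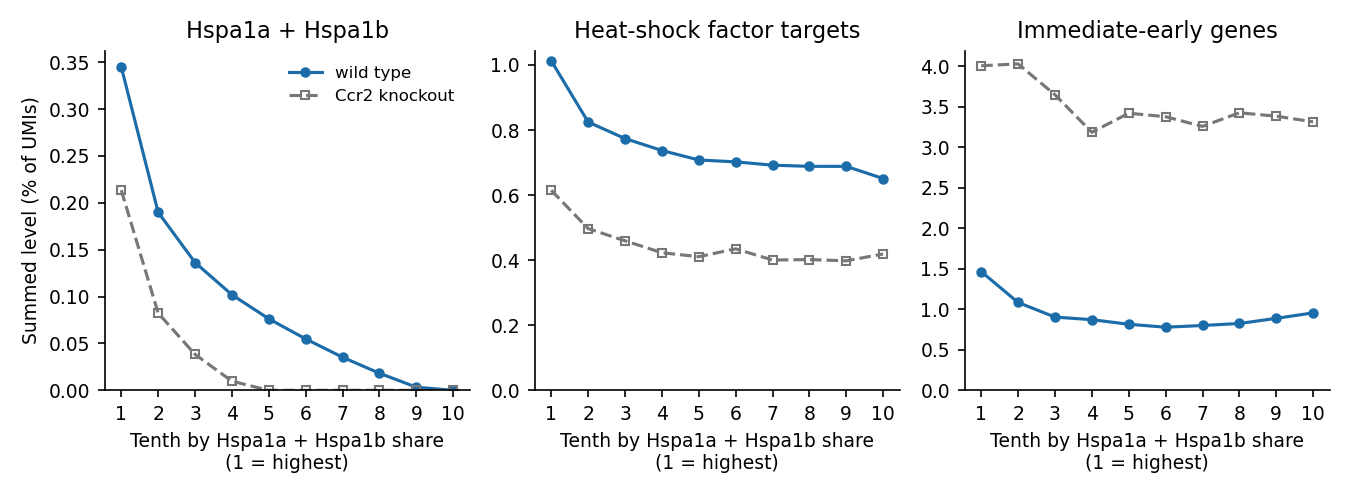
Summed level (% of UMIs, vertical axes from 0) of Hspa1a and Hspa1b, heat-shock factor targets and immediate-early genes in 10 bins of gated cells ordered by Hspa1a and Hspa1b share (1 = highest), for wild type (filled) and Ccr2 knockout (open). In wild type the first bin stands above the rest in all 3 panels (0.345%, 1.01% and 1.47%), and the knockout has a lower heat-shock factor target share and a higher immediate-early share in every bin.

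The Ccr2-knockout library held few cells at the wild-type level. Of its 2208 gated cells 68 (3.08%, interval 2.4% to 3.89%) reached 0.232%, and 66.6% had no Hspa1a or Hspa1b UMI at a median depth of 2555.5 UMIs. Hspa1a was at 192 CPM over gated knockout cells and 660 CPM over gated wild-type cells, and Hspa1b at 145 and 215 CPM. The knockout's highest 10% (221 cells) had 4.01% immediate-early UMIs and its lowest 50%, which had no Hspa1a or Hspa1b UMI at all, 3.36%. The median log2 ratio was 0.22 over 29 immediate-early genes, of which 3 were at least 1.5-fold higher and 1 lower, where 4.34% of 4698 genes were higher by that much and 3.15% lower. Of 16 heat-shock factor targets 13 were above 0 (52.4% of all genes in the knockout) and 5 at least 1.5-fold higher (4.34% of all genes). Ccr2, the deleted gene, had 5.05 and 3.73 CPM in these groups. Both knockout groups thus exceeded the wild-type heat-shock-high cells in immediate-early transcripts. Genotype, animal source, library and depth cannot be told apart here, and whether the ratios of the libraries differ was not tested.

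Among the leading genes outside these lists were stress, interferon and inflammatory genes. Hmox1, which degrades haem and responds to oxidative stress, had 155 and 105 CPM in the lanes against 52.4 and 45.3 CPM (log2 ratio 1.47), and 0.82 among cells without a Ccr2 or Plac8 UMI. The other genes of the oxidative stress list above the minimum lay between -0.18 and 0.29. The metallothionein gene Mt1 lay at 0.81. Phlda1 (1.73), the class I-like gene H2-M2 (1.70), Gas1 (1.61) and the chemokine gene Ccl24 (1.59) were also among the 15 highest. Gas1 was above the minimum only through the heat-shock-high group (53.3 against 16.8 CPM). The Ccl24 ratio was 0.87 when cells were thinned to 2000 UMIs before ranking.

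Of 13 inflammatory and NF-kappaB genes 11 were above 0 (59.5% of all genes) and 5 called higher (4.28% of all genes), with a median of 0.55. That median was 0.21 ranked by Hspa1b alone, 0.33 ranked by Hspa1a alone, 0.29 for the highest 20% of cells, 0.27 against cells without an Hspa1a or Hspa1b UMI and 0.30 in lane 2 alone. Tnf had 65.4 and 64.8 CPM against 28.1 and 24.9 CPM (log2 ratio 1.23), Ccl3 lay at 0.70 and the NF-kappaB inhibitor Tnfaip3 at 0.70. Il10 was at 62.3 CPM in lane 1 against 16.0 CPM but at 8.09 against 19.4 CPM in lane 2, so its pooled ratio of 1.42 came from lane 1. Of 10 interferon response genes 8 were above the minimum, all with a ratio above 0 (59.5% of all genes), 5 of them in both lanes, and 2 were called higher (median 0.39). That median was 0.10 ranked within 5 bins of total UMIs, 0.20 thinned to 2000 UMIs, 0.61 in lane 1 alone, 0.055 in lane 2 alone and 0.76 ranked by Hspa1b alone. Isg15 had 458 and 799 CPM against 220 and 238 CPM (1.29), and Rsad2 lay at 1.0, with 1.22 in lane 1 and 0.24 in lane 2.

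Genes of recently recruited monocytes were lower in heat-shock-high cells. All 6 above the minimum were below 0 and 5 were called lower, against 1.56% of all genes (median log2 ratio -1.04, lanes -1.0 and -1.67). Of the genes called lower, Lsp1 was above the minimum only through the heat-shock-low group. It had 16.5 CPM in heat-shock-high and 46.1 CPM in heat-shock-low cells. Ccr2 had 194 and 105 CPM against 357 and 318 CPM (-1.02), and Plac8, a myeloid gene of monocytes, 61.3 and 67.5 CPM against 158 and 250 CPM (-1.55). Ranked within 5 bins of total UMIs, the Plac8 ratio was -0.44, and among cells without a Ccr2 or Plac8 UMI the median of the list was -0.13. In that last subset the immediate-early median was 0.94 and the heat-shock factor target median 0.57, so neither was lower without those cells.

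Other genes with the lowest ratios were Ccl5 (-2.64), which had 12.5 and 8.09 CPM against 57.6 and 117 CPM, the intermediate filament gene Vim (-1.45), the calcium-binding S100a10 (-1.71) and S100a11 (-1.20), Crip1 (-1.42), Ifitm1 (-1.68) and Ccl9 (-1.50). The cell division gene Stmn1 lay at -1.78, with -2.60 in lane 1 and -0.39 in lane 2. Ccl5, S100a10, Ifitm1 and Stmn1 were below 25 CPM in heat-shock-high cells (11.3 to 17.3 CPM) and above the minimum only through the heat-shock-low group. Lyz2, the macrophage lysozyme, was lower at 6337 and 6247 CPM against 9116 and 10550.1 CPM (-0.60). Resident macrophage genes had a median of 0.01 over 6 genes. Of these Cd4 lay at 0.92 and Timd4 at 0.78 (0.37 and 0.36 among cells without a Ccr2 or Plac8 UMI), whereas Pf4 and Cd163 both lay at -0.34. After thinning, Timd4 was found in 3.41% and 3.56% of cells, so no order is read for it.

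**Figure D5:**
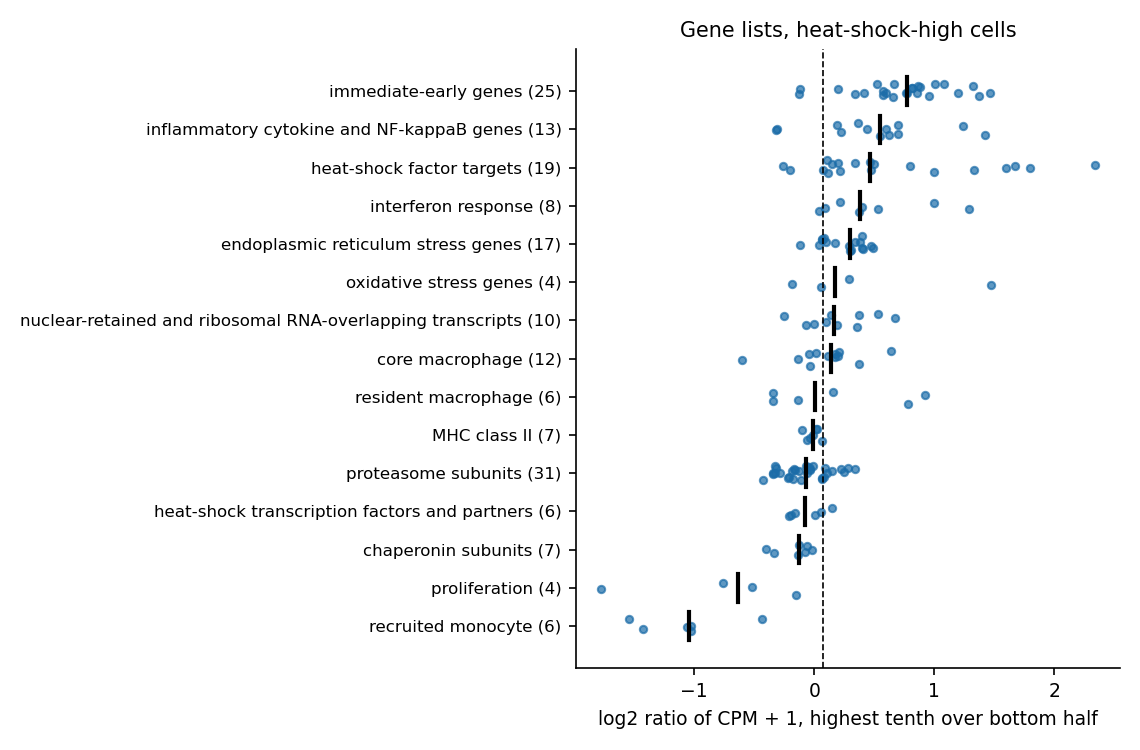
Log2 ratio of CPM + 1 (horizontal axis), heat-shock-high over heat-shock-low wild-type cells, for each gene above the minimum (points) in lists with at least 4 such genes (number in brackets); bars are list medians and the dashed line the median of all genes (0.07). Immediate-early genes have the highest median (0.77) and recruited monocyte genes the lowest (-1.04).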

How the data were processed

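The authors deposited raw UMI counts, as whole numbers, for 27998 genes in each cell. Per the submitters' processing notes, Cell Ranger 3.0.1 and the mm10 build were used; the annotation, cell calling and any depth equalisation of the lanes are not given in the sources used here. Wild type had 20766579 UMIs and the knockout 7506405. Of the cells, 3016 wild-type and 2612 knockout cells passed the filters on genes and mitochondrial UMIs, and 2639 and 2208 the C1q gate. Ties in the ranking went to the higher count, then to file order. UMIs were summed per group, scaled to 1000000 without Hspa1a and Hspa1b, and compared as log2 ratios with a pseudocount of 1 CPM for genes with a mean of the groups of at least 25 CPM. With 1 library per genotype no p-value is given. Sums carry exact Poisson and shares exact Clopper-Pearson intervals at 95%, and the floor for 0 is 3 counts. Doublets were not removed in the values reported; Scrublet (scanpy 1.11.5) scores were used for an alternative. Genes with near-identical copies or pseudogenes may share counts.

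The members and gene lists were chosen with earlier results of these data known. Named genes are Hspa1a and Hspa1b, heat-shock factor targets and immediate-early genes above 25 CPM, the 4 largest ratios of each other list, and the 15 highest and 15 lowest ratios on the same side in both lanes. Csf1r, Adgre1, Fcgr1 and genes at or below the minimum were named as markers. Some genes of the lists count in their totals and are not reported here by name. Python 3.11.15, numpy 2.4.6, scipy 1.17.1 and pandas 2.3.3 were used. The comparison was tested on simulated counts.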

Additional observations from a re-analysis of the deposited data

Results flagged for a closer look

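In 6 of the 117 named genes compared with the knockout, the wild-type and knockout ratios (heat-shock-high over heat-shock-low) pointed in opposite directions with counting intervals on opposite sides of 0. Each library is 1 sample and the differences were not tested. Some of the named genes, Phlda1 and Ccl24 among them, were chosen for the size of their wild-type ratio. The share of all genes with such opposite ratios is not given here. Opposite directions are therefore not read as particular to the named genes. Phlda1 had a log2 ratio of -0.53 in the knockout and 1.73 in wild type, and Ccl24 -1.0 and 1.59. Herpud1 had -0.20 and 0.49, and Nr4a1, an immediate-early gene, -0.35 and 0.34. The enterocyte genes Fabp1 and Fabp2 had -2.57 and -0.97 in the knockout and 0.48 each in wild type. Fabp1 rests on 6.74 against 45.1 CPM in the knockout. In wild type its ratio was 0.75 in lane 1 and -0.18 in lane 2, so its pooled direction came from lane 1.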

How the results depend on the processing

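Over 19 alternatives, of which 1 was chosen after seeing the data, the immediate-early median stayed above 0 (0.54 to 1.02), as did the heat-shock factor target median (0.21 to 0.61). The immediate-early median was 1.02 for the highest 5% of cells, 0.57 for the highest 20%, 0.62 ranked by Hspa1b alone, 0.94 without cells with a Ccr2 or Plac8 UMI and 0.54 against gated cells without an Hspa1a or Hspa1b UMI (the added alternative). The heat-shock factor target median was 0.21 for the highest 20% and 0.26 ranked by Hspa1b alone. In the ranking by Hspa1b alone the median of all genes was 0.15. There 10 of 17 heat-shock factor targets and 21 of 25 immediate-early genes were above 0. The target result was thus weak in that ranking. Ranked within 5 bins of total UMIs the medians were 0.66 and 0.38.

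Counts of genes moved more. Genes called higher and lower were 377 and 134 for the highest 5%, 80 and 44 for the highest 20%, 106 and 44 with a pseudocount of 10 CPM, 913 and 1245 with no minimum, 55 and 22 with a minimum of 100 CPM, 78 and 44 within bins of total UMIs, 115 and 120 with median-of-ratios scaling, 478 and 191 in lane 2 alone, and 758 and 296 ranked by Hspa1b alone. Genes higher were 103 ranked by Hspa1a alone. Genes lower were 147 thinned to 2000 UMIs and 122 without cells with a Ccr2 or Plac8 UMI. The minimum and pseudocount act on low genes by construction and lane 2 has fewer cells; for the others the cause was not tested. Of 23 other results 20 kept their sign throughout. The proliferation median turned from -0.64 to 0.058 in lane 2 alone, the chaperonin median from -0.13 to 0.11 without cells with a Ccr2 or Plac8 UMI, and the proteasome median from -0.07 to 0.0039 within bins of total UMIs. No paired analysis was possible because each genotype has 1 library. Depth limits the per-cell view: 40.5% of heat-shock-high cells had no UMI of Dnajb1, Hsph1 or Bag3.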
